A study of Mus musculus with 8 samples.

Results

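The cells described here carried large amounts of mRNA for the azurophil granule proteins *Elane*, *Mpo* and *Prtn3*. They were selected on these measured values: a barcode was kept where UMIs (unique molecular identifiers, each standing for 1 captured mRNA molecule) of the 3 genes made up at least 1% of all its gene UMIs. Of 46314 cells assigned to 1 hashtag across 8 libraries, 820 passed the gate, which is 1.77%. The cells came from the brain after perfusion and were sorted as CD45.2+. Because the gate used *Elane*, *Mpo* and *Prtn3*, their levels are given as a description and support nothing.

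Azurophil granules are the first granules made during neutrophil differentiation, at the promyelocyte stage in bone marrow, and they hold serine proteases and myeloperoxidase. Their genes switch on in granulocyte-monocyte progenitors, before the neutrophil and monocyte lineages have fully separated, and go silent when genes of the secondary granules follow. *Cebpe* and *Gfi1* act on the neutrophil side of this branch and *Irf8* and *Klf4* on the monocyte side. Mature neutrophils in blood and tissue keep the granule proteins but hold little of this mRNA.

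Each condition was 1 library. WT mice were C57BL/6J. *App* NL-G-F mice, called App here, carry a knock-in at the *App* locus with a humanized Aβ sequence and the Swedish, Arctic and Iberian mutations, present in all 4 App libraries. Mice were 16 weeks old per the labels. Controls drank water, acute colitis groups drank 2% dextran sulfate sodium (DSS) for 1 week, and chronic colitis groups went through 3 cycles in which DSS and water alternated every 5 days. The food allergy groups had 3 weekly injections of ovalbumin with alum and then oral ovalbumin on 7 days. Hashtag antibodies divided each library into 3 or 4 groups, and these hashtag groups are the replicates used below. The study's methods say that hashtag antibody was added to each sample, but the sources do not tie a hashtag to a mouse. The animal counts given in the study for App mice differ from the hashtag groups found here, with fewer animals than groups in chronic colitis and more in acute colitis. Hashtag groups are therefore not shown to be separate animals, and where some share an animal p-values are too small. They measure the spread between hashtag groups of 1 library, and condition and library cannot be told apart. A CD45 antibody was injected intravenously ahead of perfusion, and whether it had bound a cell is not part of these counts, so cells from vessels and from tissue cannot be told apart.

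The filtered cells held between 25639139 and 54619724 gene UMIs per library. In T cells, the summed level of 10 immediate-early genes split the 30 hashtag groups into 14 low groups (524 to 1995 CPM, UMIs per 1000000) and 16 high groups (3307 to 6068 CPM), and each library held both kinds. The gated cells followed the split: over the 24 groups with at least 4 of them, the same sum was 283 to 942 CPM in low groups and 1545 to 5792 CPM in high groups. Of 45004 distinct assigned barcodes, 1278 occurred in more than 1 library, and for 1 of them both copies were gated cells.

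The promoters of 4 of the 5 marker genes are shown, picked because the stretches share a short motif. Of these genes *Elane*, *Mpo* and *Prtn3* set the gate, so their joint presence in the cells is a description only. *Elane* and *Prtn3* lie in the same orientation on chromosome 10 (GRCm38), with 3072 bases between them. *Prtn3* spans chr10:79874476-79883174 and *Elane* spans chr10:79886247-79888215, both on the plus strand. *Mpo* spans chr11:87793581-87804413 on the plus strand, *Ctsg* chr14:56099881-56102574 on the minus strand and *Ms4a3* chr19:11629496-11640851 on the minus strand. All 5 are annotated as protein-coding genes. The stretches below are RefSeq sequence (GRCm38.p6), read 5′ to 3′ on the strand of the gene, and were ended before the next annotated exon in GENCODE (vM21), so that *Mpo* gives only a short stretch. That of *Prtn3* lies inside the gene span given above, since GENCODE lets the gene start further upstream than RefSeq. Capitals mark GAGGAA, a core of sites for PU.1, the ETS factor of myeloid cells.
Elane, chr10:79886062-79886246: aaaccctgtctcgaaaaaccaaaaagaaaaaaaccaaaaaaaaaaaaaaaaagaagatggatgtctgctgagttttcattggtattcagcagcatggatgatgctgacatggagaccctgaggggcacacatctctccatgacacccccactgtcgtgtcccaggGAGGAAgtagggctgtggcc
Prtn3, chr10:79879417-79879613: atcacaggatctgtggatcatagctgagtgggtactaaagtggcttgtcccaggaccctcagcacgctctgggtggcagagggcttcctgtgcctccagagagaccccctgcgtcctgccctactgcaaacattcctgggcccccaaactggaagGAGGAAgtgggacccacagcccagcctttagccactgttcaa
Mpo, chr11:87793534-87793580: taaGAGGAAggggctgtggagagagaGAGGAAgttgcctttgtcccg
Ctsg, chr14:56102575-56102824: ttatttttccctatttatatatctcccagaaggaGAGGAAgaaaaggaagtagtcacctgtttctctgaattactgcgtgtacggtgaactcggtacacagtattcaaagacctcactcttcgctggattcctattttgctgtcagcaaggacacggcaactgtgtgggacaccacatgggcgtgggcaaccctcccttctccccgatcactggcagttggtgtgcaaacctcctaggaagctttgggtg
In the 250 bases before the RefSeq start, GAGGAA stood 85 bases before the start of *Elane* and 95 bases before that of *Prtn3*. *Mpo* held it at 247 and 224 bases and *Ctsg* at 216 bases, while *Ms4a3* held none. Both strands were searched, and 23.3% of 32851 promoters held the motif at least once. Of the 14 genes of a 16-gene azurophil granule list that matched a promoter, 8 held it in at least 1 promoter. That count is per gene, so it cannot be set directly against the share of promoters. The 8 include the 4 genes shown. The C/EBP letters TTGCNNAA were in none of the 5 promoters, against 9.56% of all promoters, and the RUNX letters TGTGGT were in that of *Ctsg* alone, against 14% of all. The MYB letters AACNG were in the promoters of *Elane*, *Prtn3*, *Mpo* and *Ctsg*, but 74.2% of all promoters held them. A match is a description of letters and not a bound site.

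The 3 gate genes were found together. A UMI of *Elane*, *Mpo* and *Prtn3* was present in 816 of the 820 cells, and the other 4 cells had 2 of the 3. *Elane*, which encodes neutrophil elastase, was at 8011 CPM over all gated cells, with 5363 CPM in the lowest, a median of 8107 and 10980 CPM in the highest of the 8 libraries. *Mpo*, the gene of myeloperoxidase, was at 8942 CPM, with 5928, 9200 and 11156 CPM as its lowest, median and highest library. *Prtn3*, which encodes proteinase 3, was at 9096 CPM (7537, 8749 and 10413 CPM). The App acute colitis library was lowest for *Elane* and *Mpo* and the App control library for *Prtn3*. The median gate score, the share of a cell's UMIs from these 3 genes, was 1.93% and the highest was 10.4%.

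The remaining markers were not used by the gate and were near universal in it. *Ctsg*, which encodes cathepsin G, had a UMI in 99.0% of gated cells and was at 3283 CPM, against 566 CPM in progenitors and 8.97 CPM in neutrophils with secondary granule genes. Across libraries it ran from 2545 CPM (WT food allergy) through a median of 3283 to 4261 CPM (WT acute colitis, 9 cells). *Ms4a3*, a membrane protein gene used to mark granulocyte-monocyte progenitors, had a UMI in 95.2% of the cells and was at 743 CPM, with libraries from 577 through 662 to 1155 CPM. In T cells, which should lack these genes, 1.19% had a *Ctsg* UMI and 0.540% a *Ms4a3* UMI, at a median depth of 3416 UMIs against 26076 in gated cells. Progenitors here are 710 cells with *Cd34* and *Kit* UMIs, and neutrophils with secondary granule genes are 3850 cells with at least 1% of UMIs from *Ltf*, *Camp* and *Ngp*. Both classes were defined outside the gate.

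The threshold cut through a continuous range of scores. The 136 gated cells with scores of 1% to 1.2% had a *Ctsg* UMI in 98.5% and a *Ms4a3* UMI in 89.0%. Among the 159 assigned cells just outside, at 0.8% to 1%, the shares were 96.9% and 73.0%. The gate is a range of expression with no gap at its edge.

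The gated cells were deeper than the 4 other cell populations compared. Their median of 26076 UMIs and 4944.5 genes compared with 3218 UMIs and 1424 genes over all other assigned cells, 10262.5 UMIs in progenitors, 8855 in neutrophils with secondary granule genes and 10744.5 in 2216 monocytes with *Ccr2*, *F13a1* and *Ly6c2* UMIs. No doublet caller was run. Cells carrying several hashtags were removed, and 46 gated cells (5.61%) held 2 or more of 8 B cell markers, 35 (4.27%) 2 or more of 9 T and NK cell markers and 79 (9.63%) 2 or more macrophage and microglia markers, so doublets within a hashtag group may remain. *Nkg7* was on both the T and NK list and the azurophil granule list. It had a UMI in 70.7% of gated cells with *Irf8* but no *Cebpe* UMIs. Among those with *Cebpe* but no *Irf8* UMIs the share was 98.1%. In a cell with *Nkg7*, 1 further marker was enough for the T and NK count. Among neural markers, *Snap25*, *Syt1*, *Gfap* and *Aqp4* had no UMI in any gated cell, and *Slc17a7* had a UMI in 1 cell. *Mbp*, the gene of myelin basic protein, which blood cells also transcribe, had a UMI in 30.6% of gated cells (14.4 CPM) and made up nearly all of the list's 14.6 CPM.

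The data went partly against the name neutrophil precursors. Genes of the monocyte lineage were widespread in the gate: *F13a1*, a coagulation factor made by monocytes, had a UMI in 83.5%, *Irf8*, a transcription factor needed for monocytes and dendritic cells, in 73.4%, *Ly86* in 69.5% and *Csf1r*, the M-CSF receptor gene, in 69.1%. T cells had UMIs of these genes in 3.10%, 9.56%, 7.85% and 3.82%, at the lower depth given above. *Cebpe*, the transcription factor gene needed for secondary granules, was seen in 39.9% of gated cells, and *Fcnb* in 30.1%. *Ltf*, the lactoferrin gene of secondary granules, was seen in 6.34%, and *Ly6g*, a surface marker of mature neutrophils, in 2.56%. The cells are therefore called Elane-Mpo-Prtn3 cells below.

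*Irf8* and *Cebpe* divided the Elane-Mpo-Prtn3 cells. An *Irf8* UMI without a *Cebpe* UMI was present in 434 cells (52.9%, 95% Clopper-Pearson interval 49.4 to 56.4), a *Cebpe* UMI without *Irf8* in 159 (19.4%, 16.7 to 22.3), both in 168 (20.5%, 17.8 to 23.4) and neither in 59 (7.20%, 5.52 to 9.18). The intervals cover counting error only. This division was chosen after the values had been seen, so the levels below are a description without a test. Depth was alike in the 2 single classes, with medians of 26028.5 UMIs in *Irf8*-only and 26066 in *Cebpe*-only cells, but only 13175 in cells with neither. After each cell was thinned to 10000 UMIs, which left out 39 shallower cells, 450 of 781 cells were *Irf8*-only, 153 were *Cebpe*-only, 80 had both and 98 had neither.

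Genes of the monocyte side followed *Irf8*. *Ly86* was at 321 CPM in *Irf8*-only cells and 9.88 CPM in *Cebpe*-only cells, a 32.4-fold difference. *Csf1r* was 13.6-fold, *F13a1* 12.7-fold (1107 against 86.9 CPM), *Ccr2*, the receptor that monocytes use to leave the marrow, 12.5-fold and *Klf4* 46.5-fold higher in *Irf8*-only cells (104 against 2.25 CPM). Each of these 5 genes was higher in *Irf8*-only cells in 7 of the 7 libraries with at least 5 cells of both classes. *Ly6c2*, the Ly6C gene, differed less, at 3015 against 1233 CPM.

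Genes of the neutrophil side followed *Cebpe*. *Gfi1*, a repressor needed for neutrophils, was 10.3-fold higher in *Cebpe*-only cells (106 against 10.2 CPM). *Fcnb*, a lectin gene, was at 160 against 14.5 CPM, *Cd63*, an azurophil granule membrane protein gene, at 818 against 44.5 CPM (18.4-fold) and *Prss57*, which encodes a further azurophil granule serine protease, at 313 against 61.2 CPM (5.12-fold). *Camp*, which encodes the cathelicidin of secondary granules, was at 3928 CPM against 10.2 CPM, and *S100a8* at 13375 against 511 CPM. All 6 were higher in *Cebpe*-only cells in 7 of 7 libraries. A *Camp* UMI was present in 4.15% of *Irf8*-only and 39.0% of *Cebpe*-only cells, and an *S100a8* UMI in 39.6% and 69.8%. The means of *Camp* and *S100a8* therefore do not describe every *Cebpe*-only cell. The markers outside the gate were also higher there: *Ctsg* was 2.16-fold and *Ms4a3* 3.30-fold the level in *Irf8*-only cells, again in 7 of 7 libraries. *Lyz2* and *Gpx1*, members of the azurophil granule list, went the other way. *Lyz2* was at 1591 CPM in *Irf8*-only and 509 CPM in *Cebpe*-only cells (6 of 7 libraries), and *Gpx1* at 3567 and 3096 CPM (7 of 7 libraries). *Elane* (2.89-fold) and *Mpo* (2.10-fold) were higher in *Cebpe*-only cells, but they set the gate and are a description only. So is the median gate score, 3.94% in *Cebpe*-only and 1.67% in *Irf8*-only cells.

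**Figure D1:**
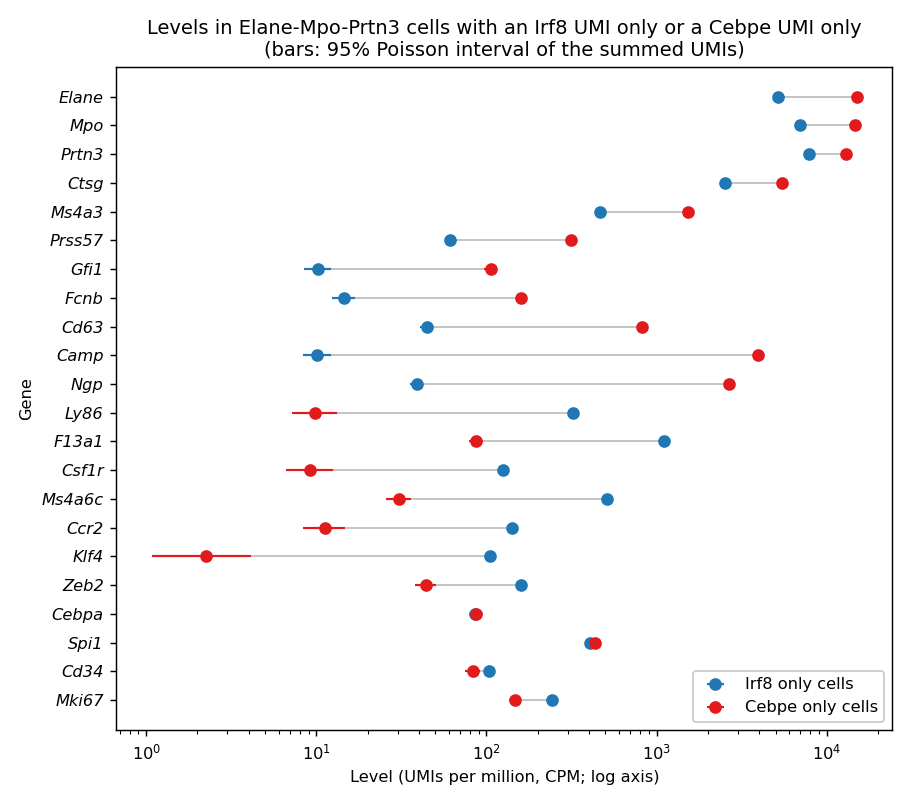
Level of 22 genes (x axis, CPM on a log axis) in Elane-Mpo-Prtn3 cells with an Irf8 UMI only (434 cells, blue) or a Cebpe UMI only (159 cells, red), all libraries summed, with 95% Poisson intervals. Granule genes, Gfi1, Fcnb, Cd63, Camp and Ngp lie to the right in red and Ly86, F13a1, Csf1r, Ms4a6c, Ccr2, Klf4 and Zeb2 to the right in blue, while Spi1 (407 and 435 CPM) and Cebpa (85.5 and 86.9 CPM) nearly coincide. Elane, Mpo and Prtn3 set the gate and are shown as a description only.

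Genes common to both lineages did not all divide the cells this way. *Spi1*, the PU.1 gene, was at 407 CPM in *Irf8*-only and 435 CPM in *Cebpe*-only cells, and *Cebpa*, needed to enter the granulocyte-monocyte stage, at 85.5 and 86.9 CPM. *Cd34* was at 103 and 83.1 CPM and was higher in *Irf8*-only cells in 4 of 7 libraries. *Kit* and *Myb*, 2 genes of immature cells, were 2.41-fold and 2.52-fold higher in *Cebpe*-only cells, in 7 of 7 libraries. *Flt3*, another such gene, was higher in *Irf8*-only cells (18.6 against 4.04 CPM), also in 7 of 7 libraries. The 59 cells with neither *Irf8* nor *Cebpe* stood apart in basophil and mast cell genes: *Mcpt8* was at 800 CPM there, against 23.9 CPM in *Irf8*-only and 60.2 CPM in *Cebpe*-only cells, and *Gata2* at 140 CPM against 4.51 and 22.2 CPM. Of these 59 cells, 37.3% had a *Mcpt8* UMI and 42.4% a *Gata2* UMI, so the levels come from part of the class.

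The intervals of the class shares overlapped between most libraries. They cover counting error and not the spread between hashtag groups, so they do not compare conditions. *Irf8*-only cells were 57.5% (49.8 to 64.9) of gated cells in WT chronic colitis, 59.0% (47.3 to 70.0) in App control, 56.2% (47.2 to 64.8) in App chronic colitis and 58.9% (50.9 to 66.5) in App food allergy. They were 49.4% (38.5 to 60.4) in WT control, 44.2% (30.5 to 58.7) in WT food allergy and 40.2% (31.6 to 49.2) in App acute colitis, where cells with both genes made up 32.3% (24.3 to 41.2) and the depth of gated cells was highest (median 36558 UMIs). WT acute colitis held 2 *Irf8*-only and 6 *Cebpe*-only cells among only 9. Over the 12 hashtag groups with at least 20 gated cells, the *Cebpe*-only share ran from 6.90% (App chronic colitis, hashtag 6) through a median of 18.6% to 30.3% (WT food allergy, hashtag 4). The *Irf8*-only share ran from 39.4% (WT food allergy, hashtag 4) to 67.7% (App control, hashtag 5).

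**Figure D2:**
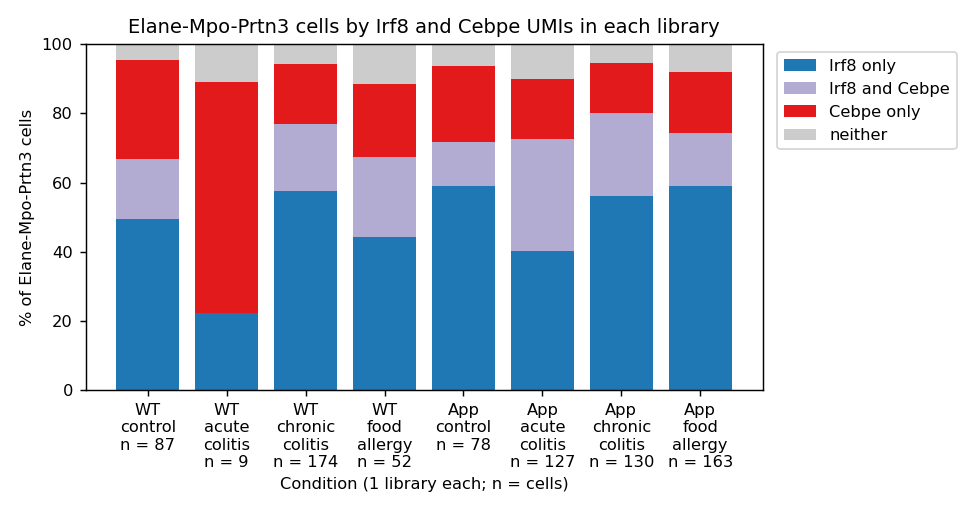
Share of Elane-Mpo-Prtn3 cells (y axis, % of the library's gated cells) with UMIs of Irf8 only, of Irf8 and Cebpe, of Cebpe only or of neither, for each library (x axis, n is the number of gated cells). Irf8-only cells are the largest class in 7 of 8 libraries, and WT acute colitis holds 9 cells.

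Secondary granule genes were rare. The summed share of *Ltf*, *Camp* and *Ngp* was under 0.1% in 763 cells (93.0%), between 0.1% and 1% in 14 and at least 1% in 43 (5.24%). None of the 43 was *Irf8*-only, while 31 were *Cebpe*-only. In these 43 cells *Cebpe* was at 361 CPM against 49.7 CPM in the 763, *Fcnb* at 534 against 27.2 CPM, *Cd177*, a surface protein gene of neutrophils, at 580 against 7.28 CPM and *Cybb*, the NADPH oxidase subunit gene, at 562 against 107 CPM. *Ctsg* was at 1435 against 3348 CPM, while *Ms4a3* was at 880 against 721 CPM. As a description only, the gate gene *Mpo* was at 5383 against 9093 CPM, *Prtn3* at 9977 against 8941 CPM and *Elane* at 11416 against 7691 CPM. Only 3 libraries had 5 cells at both ends, and in each *Cebpe*, *Fcnb*, *Cd177* and *Cybb* were higher and *Ctsg* lower in the cells with secondary granule genes. *Ms4a3* was higher in these cells in 2 of the 3 libraries. *Cd74*, an antigen presentation gene, was also higher there, at 1451 against 72.9 CPM.

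The cells with secondary granule genes were unevenly spread. They were 2 of 9 gated cells in WT acute colitis (22.2%, 2.81 to 60.0), 10 of 52 in WT food allergy (19.2%, 9.63 to 32.5), 8 of 78 in App control (10.3%, 4.53 to 19.2), 4 of 163 in App food allergy (2.45%, 0.673 to 6.16) and 2 of 127 in App acute colitis (1.57%, 0.191 to 5.57). In WT food allergy, hashtag 4 held 27.3% of its 33 gated cells in this range. Within App control the share was 14.8% of 27 cells in hashtag 7 and 0% of 31 cells in hashtag 5, and within WT control it was 0% of 60 cells in hashtag 5. No test was run on these shares.

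Of the 20 genes outside the gate that were highest in gated cells relative to all other cells of the same hashtag group, *Gm11505* led. Its log2 ratio of CPM, with 10 CPM added, had a median of 4.98 over the 12 groups (4.20 to 5.95). *Gm11505* is annotated as an antisense RNA at chr11:87795784-87801144 on the minus strand, within *Mpo*, and how strand was used in counting was not given in the sources used here, so its UMIs may belong to *Mpo*. *Ctsg* (4.58) and *Ms4a3* (4.41) came next, followed by *Gstm1* (3.13), *Prss57* (2.96) and *Dmkn* (2.62). *Alas1*, the first enzyme of haem synthesis, had a median ratio of 2.47 with groups from 0.23 to 3.40, and *Calr*, an endoplasmic reticulum (ER) chaperone, 2.05 with groups from 1.68 to 2.55. Over 8877 genes at 10 CPM or more in either class, the median ratio to all other cells was 0.03 and 52.0% were higher in gated cells.

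Secretory genes were high in the gated cells. All 22 genes of an ER folding and secretion list were higher in gated cells than in progenitors (median log2 ratio 0.78) and than in neutrophils with secondary granule genes (2.17), against medians of -0.09 and 0.66 over the 8877 genes. *Calr* was at 710 CPM against 327 in progenitors, *P4hb*, a disulfide isomerase gene, at 1051 against 444 CPM and *Hspa5*, the BiP chaperone gene, at 926 against 528 CPM. Of 18 ribosome biogenesis genes, 13 were higher than in progenitors and 18 than in neutrophils with secondary granule genes, with *Npm1* at 2133, 1889 and 95.6 CPM in the 3 classes. Their median log2 ratio to progenitors was 0.12. Of 22 S phase genes, 21 were higher than in progenitors (median 0.44) and 22 than in neutrophils with secondary granule genes. Over the 8877 genes, 39.4% were higher than in progenitors and 73.5% than in neutrophils with secondary granule genes. *Mki67*, a gene of cycling cells, had a UMI in 82.4% of gated cells and 7.49% of T cells, and cells were not thinned for these shares.

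Genes of later neutrophil stages were low. All 21 genes of a secondary and tertiary granule list were lower than in the neutrophils with secondary granule genes, whose choice used 3 of them, with *S100a8* at 4362 against 126008 CPM and *Lcn2* at 600 against 24898 CPM. *Hp*, the haptoglobin gene, was the nearest among the abundant ones, at 1002 against 3433 CPM. *Cxcr2*, the receptor with which mature neutrophils leave the marrow, was at 6.28 against 248 CPM. *Myb* was at 202 CPM, between 258 CPM in progenitors and 11.9 CPM in neutrophils with secondary granule genes.

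**Figure D3:**
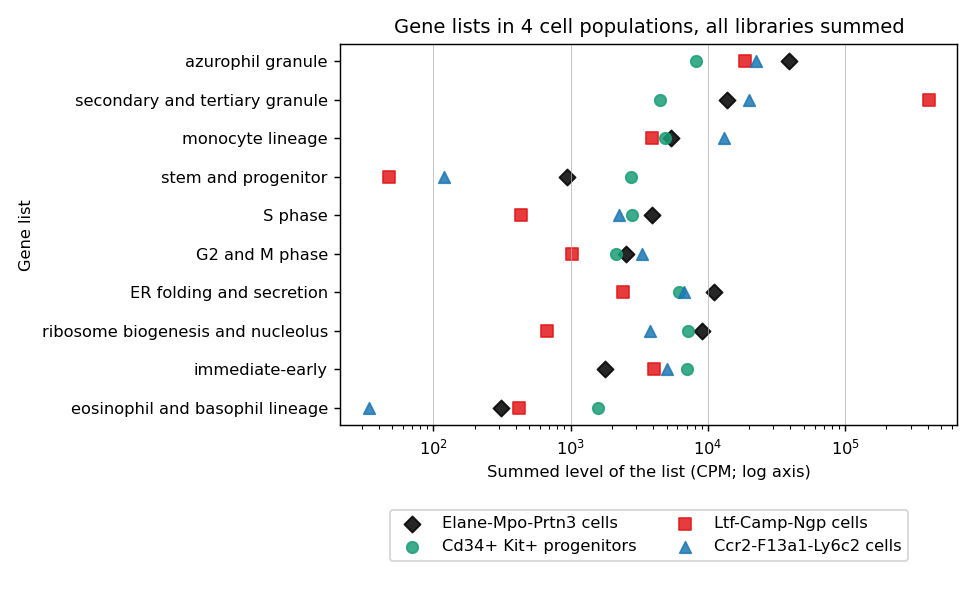
Summed level of 10 gene lists (y axis) in CPM (x axis, log axis) in Elane-Mpo-Prtn3 cells (black), Cd34+ Kit+ progenitors (green), neutrophils with Ltf, Camp and Ngp (red) and monocytes with Ccr2, F13a1 and Ly6c2 (blue), all libraries summed. Elane-Mpo-Prtn3 cells are rightmost for the azurophil (which holds the 3 gate genes), ER folding, ribosome biogenesis and S phase lists and lie between progenitors and neutrophils for the stem and progenitor list (948 CPM against 2737 and 47.6 CPM), which holds Cd34 and Kit, the genes that chose the progenitors.

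The first question of the design, whether the treatments or the genotype changed the share of these cells, was addressed over the 28 hashtag groups with at least 100 cells. In App chronic colitis, hashtags 4, 5, 6 and 7 held 4.02%, 1.29%, 1.75% and 1.83%, and in App control 0.297%, 1.81%, 0.962% and 1.55%. The highest group was in chronic colitis and the lowest in control, and the groups overlapped. The means were 2.22% ± 1.22 (SD, n = 4) and 1.15% ± 0.672 (SD, n = 4), a difference of 1.07 percentage points with p = 0.171 by a two-sided exact permutation test, where 0.0286 is the smallest p the design allows, and 0.8 after adjustment over 7 comparisons. Without hashtag 4 of chronic colitis the difference was 0.471 points. App food allergy groups held 2.60%, 4.68%, 0.376% and 1.89%, with a mean of 2.39% ± 1.79 (SD, n = 4), 1.23 points above App control (exact permutation p = 0.229, adjusted 0.8). Leaving out 1 group moved this difference to between 0.469 and 1.90 points.

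In App acute colitis, hashtag 7 held 121 of the 127 gated cells. Hashtags 4, 5 and 7 held 0.0772%, 0.283% and 3.76%, a mean of 1.37% ± 2.07 (SD, n = 3), 0.219 points above App control (exact permutation p = 0.914, adjusted 1; the smallest p allowed is 0.0571). Without hashtag 7, the difference was -0.974 points, so the direction rested on this group.

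In WT chronic colitis, hashtag 6 held 154 of 174 gated cells. Hashtags 5, 6 and 7 held 2.07%, 4.61% and 0.637%, a mean of 2.44% ± 2.01 (SD, n = 3). WT control groups held 0.543%, 2.91%, 0.635% and 0.512% (1.15% ± 1.17, SD, n = 4), and the difference was 1.29 points (exact permutation p = 0.343, adjusted 0.8). Without hashtag 6 it was 0.204 points. In WT acute colitis 2 groups held 0.119% and 0.111% and a group of only 108 cells held 2.78%, a difference of -0.148 points from WT control (exact permutation p = 0.629, adjusted 1). Without that small group it was -1.04 points, and without hashtag 5 of WT control, which held 2.91%, it was 0.439 points. WT food allergy groups held 1.79%, 0.654% and 0.901%, differing by -0.0364 points (exact permutation p = 0.914, adjusted 1). Leaving out 1 group moved it to between -0.373 and 0.551 points.

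App control and WT control differed by 0.00379 points (exact permutation p = 1, adjusted 1), with values from -0.213 to 0.591 points when 1 group was left out. None of the 7 comparisons passed, and none could have. The smallest p allowed was 0.0571 or 0.0286, so no value under 0.05 was possible after adjustment over 7 comparisons. The tests therefore do not show that the shares were equal. All 7 pairs of conditions overlapped. The change with treatment also did not pass a test between genotypes: App change minus WT change was 0.367 points for acute colitis (p = 0.779), -0.220 for chronic colitis (p = 0.871) and 1.27 for food allergy (p = 0.368), by exact permutation of genotype within treatment over hashtag groups. Low and high immediate-early groups overlapped in share, with medians of 1.85% over 12 low groups and 0.808% over 16 high groups. Within low and high groups, where each side held 1 or 2 groups, the differences were 1.05 and -0.459 points for WT acute colitis, 0.345 and 2.05 for WT chronic colitis and -0.826 and 0.647 for WT food allergy. They were 2.71 and -1.08 points for App acute colitis, 1.61 and 0.533 for App chronic colitis, 0.0837 and 2.38 for App food allergy and -0.676 and 0.684 for App control against WT control. Only chronic colitis in both genotypes and App food allergy kept 1 direction in both sets.

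The neutrophil lineage here means the gated cells, neutrophils with secondary granule genes and cells with at least 1% of UMIs from *S100a8* and *S100a9*. It is a label, since 52.9% of all gated cells were *Irf8*-only. As a share of this lineage, the gated cells were rarest in WT food allergy (3.99%) and WT acute colitis (4.29%). WT control (26.9%) held the highest such share and WT chronic colitis 19.7%. Among App libraries, chronic colitis held 19.9%, food allergy 17.1%, control 15.9% and acute colitis 9.78%. On this denominator the differences over hashtag groups turned to -20.3 points for WT chronic colitis, -9.21 for App acute colitis and -32.0 for App control against WT control, each with an adjusted exact permutation p of 0.8. Few lineage cells lay behind 2 of the 4 WT control groups: the share was 5 of 7 lineage cells (71.4%) in hashtag 4 and 60 of 61 (98.4%) in hashtag 5, against 9.27% and 7.69% in hashtags 6 and 7.

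**Figure D4:**
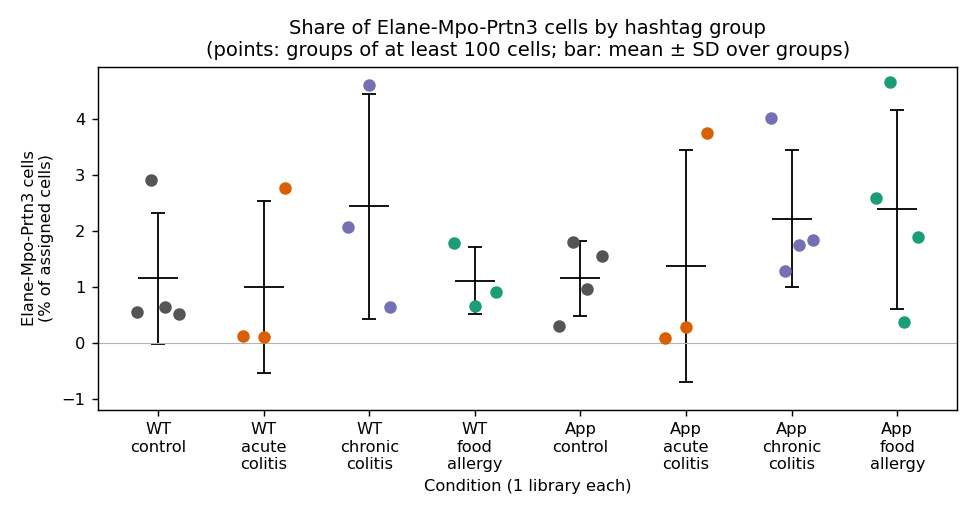
Share of Elane-Mpo-Prtn3 cells (y axis, % of assigned cells) in each hashtag group of at least 100 cells (points) for the 8 conditions (x axis), with the mean ± SD over groups (bars). Shares range from 0.0772% to 4.68%, and every treated condition overlaps its control.

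The second question, whether genes changed within the cells, could be tested only where both conditions had at least 2 hashtag groups with 20 gated cells. That was so for App chronic colitis and for App food allergy, each 3 groups against the same 2 of App control, in 1 edgeR fit over 12 groups of 7 conditions. These comparisons share their control groups. The 5 others, among them every comparison within WT and that of the genotypes, were not run at this size.

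In App chronic colitis, 1 of 8897 genes tested was called at an adjusted p under 0.05 (0.0112%), and 342 (3.84%) had an unadjusted p under 0.05. The gene was *Rps28*, a ribosomal protein gene named here after its value was seen. It was at 2343, 2581 and 2536 CPM in chronic colitis and 3823 and 3950 CPM in control, with no overlap. Its log2 fold change was -0.64 ± 0.08 (SE; edgeR adjusted p = 0.0267), and the call ended on leaving out any 1 of the 5 groups compared or with hashtag number as a term. *Rps29* (-0.61) and *Rpl38* (-0.63) had an edgeR adjusted p of 0.0631 each. *Rps28* was also lower in T cells of the same library, at 3074 CPM against 4494 CPM in App control. In App food allergy, 0 of 8897 genes were called (0%) by edgeR, 399 (4.48%) had an unadjusted p under 0.05, and DESeq2 called 3. Without a filter on low counts edgeR called 49 genes in chronic colitis and 62 in food allergy.

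No marker or list member was called in either comparison. *Elane*, *Mpo* and *Prtn3* set the gate, so nothing is drawn from their lack of a call. Values of *Ctsg* were 2961 and 2872 CPM in App control, 3509, 2908 and 3201 CPM in App chronic colitis and 3478, 3193 and 3053 CPM in App food allergy, with log2 fold changes of 0.14 ± 0.09 and 0.15 ± 0.09 (SE). *Ms4a3* gave 0.10 ± 0.19 and 0.10 ± 0.19, *Irf8* 0.21 ± 0.31 and 0.13 ± 0.30 and *Cebpe* 0.53 ± 0.36 and 0.63 ± 0.36, all with an edgeR adjusted p of 1. The 16 azurophil granule genes had a median log2 fold change of 0.14 in chronic colitis and 0.13 in food allergy, against 0 and -0.00179 over all genes tested. That list holds the gate genes *Elane*, *Mpo* and *Prtn3*, so its medians are a description only. The 16 monocyte lineage genes had medians of -0.11 and -0.02.

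The G2 and M phase list had a median log2 fold change of 0.38 in App food allergy and 0.10 in App chronic colitis. In food allergy 19 of its 22 genes had a positive value (86.4%, against 49.6% of all genes tested) and 10 had an unadjusted p under 0.05, and none passed adjustment. *Ube2c*, which drives the end of mitosis, was at 293, 250 and 225 CPM in food allergy and 74.0 and 116 CPM in control, with no overlap (log2 fold change 1.44 ± 0.23 SE, edgeR adjusted p = 0.293). The 22 S phase genes had a median of -0.28, with 1 positive. Markers of B cells were at a higher level in the same groups: *Cd79a* was at 39.3, 18.5 and 16.7 CPM in food allergy and 0 and 1.50 CPM in control (edgeR adjusted p = 0.453). All 6 B cell markers tested had a positive log2 fold change, and their part in other values was not tested. Of 12 eosinophil and basophil genes 9 were tested, and none was called in either comparison. Several had no UMI in either App control group and were carried by few treated groups: *Fcer1a*, an IgE receptor subunit gene, was at 0 CPM in both control groups, at 0, 4.49 and 36.6 CPM in food allergy and at 39.1, 0 and 14.2 CPM in chronic colitis. *Fos*, 1 of 10 immediate-early genes, followed the split of the groups, at 28.9 and 1290 CPM in control, which held 1 low and 1 high group, 1553, 1318 and 52.3 CPM in food allergy and 51.7, 1967 and 2124 CPM in chronic colitis, which held 1 low and 2 high groups each. None of the 10 was called.

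With groups of at least 10 gated cells, an alternative chosen after seeing the data, WT chronic colitis, WT food allergy and App control could be compared with WT control. Neither acute colitis comparison could be run. WT control entered with hashtags 5 and 6 (60 and 14 gated cells). WT chronic colitis entered with hashtags 6 and 7 (154 and 10) and WT food allergy with hashtags 4 and 5 (33 and 15). WT chronic colitis against WT control gave 133 higher (1.5%) and 3 lower genes (0.0339%) of 8855, together 1.54%. WT food allergy gave 67 (0.757%) and 1 (0.0113%), together 0.768%, and App control against WT control gave 157 (1.77%) and 11 (0.124%), together 1.9%. App chronic colitis gave 3 lower genes (0.0339%). Of these calls 39.0%, 57.4% and 37.5% were genes named as ribosomal proteins or respiratory chain subunits, against 2.04% of genes tested. *Rps29* led all 3, with log2 fold changes of 2.47, 1.41 and 2.70. Of the ribosomal protein genes, *Rps28*, *Rps29* and *Rpl38* were looked at in T cells, and all 3 were lowest there in the WT control library: *Rps28* was at 813 CPM in them against 1827 to 4494 CPM in T cells of the other 7 libraries, and at 682 CPM in the gated cells against 1710 to 3761 CPM. The part of the library in these calls was not tested. No gene of the azurophil granule list, which holds the gate genes *Elane*, *Mpo* and *Prtn3*, was called in these 3 comparisons. With 1.9% or less of all genes called, a short list without a call is not a result about its genes. *Prg2*, which encodes the major basic protein of eosinophil granules, was called lower than in WT control in all 3 (edgeR adjusted p = 0.0298, 0.0428 and 0.00512). In the groups with at least 20 gated cells it was at 941 CPM in WT control hashtag 5 and at 0 to 6.27 CPM in the other 11. *Cd74*, *H2-Aa* and *H2-Ab1*, antigen presentation genes of other cell types, were called higher in both WT treatment comparisons (log2 fold changes of *Cd74* 7.02 and 6.78, edgeR adjusted p = 0.00158 and 0.00333). *Cd74* was at 11.8 CPM in WT control hashtag 5, 284 CPM in WT chronic colitis hashtag 6 and 1033 CPM in WT food allergy hashtag 4. The part of other cell types in these values was not tested.

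**Figure D5:**
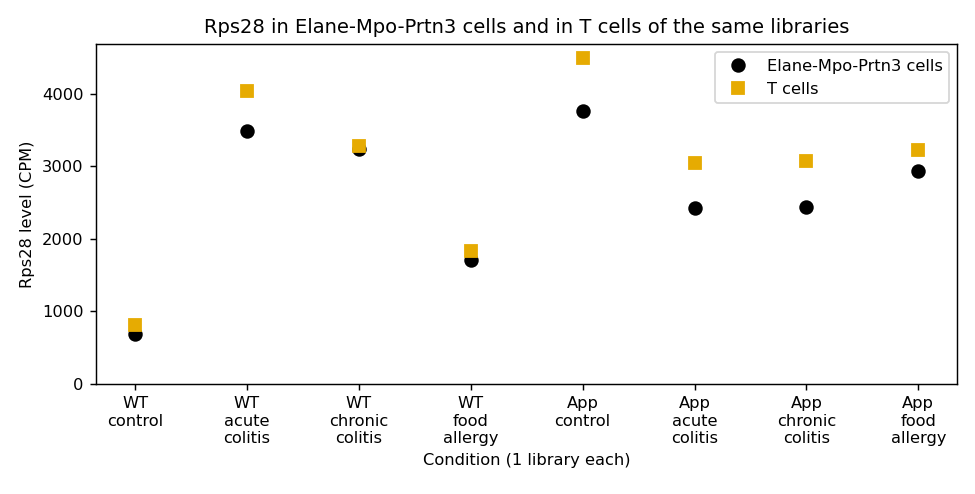
Level of Rps28 (y axis, CPM) in Elane-Mpo-Prtn3 cells (black circles) and T cells (yellow squares) of each library (x axis). WT control is lowest in both, at 682 and 813 CPM, and App control highest in both, at 3761 and 4494 CPM.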

How the data were processed

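The authors made the libraries with a 10x Genomics 5′ kit and deposited unfiltered matrices of raw UMI counts for each gene and barcode. The submitters' processing notes name Cell Ranger 6.1.2 and mm10, while the file headers name an earlier release; treatment of strand was not given in the sources used here. Barcodes with at least 500 gene UMIs, 200 genes and at most 5% mitochondrial UMIs were kept (51120), and 46314 of them had a top hashtag of at least 50 UMIs and 3 times the second. The gate, the members and the gene lists were chosen with earlier results of these data known.

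Shares were compared over hashtag groups of at least 100 cells with two-sided exact permutation tests (SciPy 1.17.1), adjusted over 7 comparisons by Benjamini-Hochberg. UMIs of groups with at least 20 gated cells were summed and tested with edgeR 4.0.16 (quasi-likelihood, TMM, filterByExpr) in R 4.3.3, with Benjamini-Hochberg adjustment over all genes. DESeq2 1.42.0 and other gates, filters, denominators, covariates and left-out groups were alternatives. The script was tested on simulated data. Levels are CPM (UMIs per 1000000). Intervals are 95% Clopper-Pearson or Poisson and cover counting error only. Named genes were the gate genes, *Ctsg* and *Ms4a3*, up to 6 of a list by level or called, the 20 highest against other cells, and up to 5 called in each direction with 20 CPM or more; mitochondrial, ribosomal, immunoglobulin and T cell receptor genes stayed out of the last. Genes named for the *Irf8* and *Cebpe* classes and the stages were chosen after their values were seen. Promoters are from RefSeq (GRCm38.p6) and gene positions from GENCODE vM21. Receptor sequences (V(D)J) were not used.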

Additional observations from a re-analysis of the deposited data

Results flagged for a closer look

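In WT control, hashtag 5 held a share of Elane-Mpo-Prtn3 cells of 2.91%, and the 3 other groups held 0.512% to 0.635%. The gap to the nearest group was 0.949 of the whole range, above the critical value of 0.829 of Dixon's test for 4 samples. The test was applied to the 4 conditions with 4 groups, and chance passes it in about 1 in 20 groups. Hashtag 5 held 60 of the library's 87 gated cells and was a low immediate-early group. Its gated cells also stood apart in eosinophil genes: *Prg2* was at 941 CPM, *Prg3* at 102 CPM and *Epx* at 53.0 CPM, and the 12 eosinophil and basophil genes summed to 1533 CPM, the highest of the 12 groups with at least 20 gated cells, whose median was 148 CPM.

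Cells without a single hashtag were in no comparison. Of these 4806 cells, 110 passed the gate (2.29%, 95% Clopper-Pearson interval 1.88 to 2.75), against 1.77% of the cells assigned to 1 hashtag.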

How the results depend on the processing

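No share comparison passed under any alternative with a test, and the lowest adjusted exact permutation p was 0.233, with a hashtag ratio of 10. In the main setting no adjusted p under 0.05 was possible, so the lack of a pass does not show equal shares. Directions changed as follows, in percentage points of the share. For WT acute colitis the difference was 0.296 within immediate-early sets, and leaving out 1 group gave -1.04 to 0.439. For WT chronic colitis it was -20.3 with the neutrophil lineage as denominator, with 0.204 to 2.19 on leaving out 1 group. For WT food allergy it was 0.267 with a gate of 0.5%, 0.0923 with a hashtag ratio of 10 and 0.000540 with at least 1000 UMIs, and -0.373 to 0.551 on leaving out 1 group. For App acute colitis it was -9.21 with the neutrophil lineage as denominator and -0.974 without hashtag 7, with -0.974 to 0.867 on leaving out 1 group. For App chronic colitis and App food allergy it stayed above 0, at 0.471 to 1.38 and 0.469 to 1.90 on leaving out 1 group. For App control against WT control it was -0.125 with a gate of 2%, -0.125 between whole libraries and -32.0 with the neutrophil lineage as denominator, and -0.213 to 0.591 on leaving out 1 group. The cause was not tested.

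Genes called moved with the fit. In App chronic colitis, 1 gene became 4 with DESeq2, 49 without a filter on low counts, 5 with an immediate-early covariate, 0 with hashtag number as a term, 3 with groups of at least 10 cells and 3 with those groups and the covariate. In App food allergy, 0 genes became 3 with DESeq2, 62 without a filter, 3 with the covariate and 2 with groups of at least 10 cells and the covariate. Leaving out 1 group gave 0 to 1 and 0 to 2 genes. With groups of at least 10 cells, WT chronic colitis gave 136 genes (146 with the covariate), WT food allergy 68 (68) and App control against WT control 168 (179). Fits with at least 50 gated cells and with a gate of 2% were not run, since no comparison kept 2 groups in both conditions. No paired analysis was possible because each condition is 1 library and hashtag numbers name no shared animal. With 9 gated cells, WT acute colitis limits any statement on its cells.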
